A study of Mus musculus with 27 samples.

Results

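The BCL2 family genes that decide between survival and death were described in neutrophils and macrophages sorted by flow cytometry from mouse mammary tumours. Members were the rows of the deposited expression table whose symbol was Mcl1, Bcl2, Bcl2l1, Bcl2l11, Bcl2a1b, Bcl2a1d, Bax, Bak1, Bid or Bbc3. Of these 10 genes 9 were among the 9996 genes listed; Bbc3 (the BH3-only protein PUMA) was not analysed here. All animals were K14cre;Cdh1F/F;Trp53F/F mice, in which Cre driven by the keratin 14 promoter, which is active in epithelial cells, deletes E-cadherin and p53 and mammary tumours arise. The cisplatin-naive groups were given control antibody or anti-CSF-1R, which targets a receptor that macrophages need for survival. The other groups were given cisplatin, a DNA crosslinking drug, together with either antibody; cisplatin below stands for cisplatin/control antibody, and combination for cisplatin/anti-CSF-1R. For neutrophils there were 4 libraries of control, 4 of anti-CSF-1R, 3 of cisplatin and 4 of the combination, and for macrophages 4, 2, 4 and 2. Tumours were taken 1 day after the second cisplatin injection, or at 100 mm2 in mice without cisplatin, so a comparison with and without the drug also compares these endpoints. The sources used here give neither the age of the mice nor how many stand behind the libraries, so p-values measure only how these samples spread, and that spread may be technical.

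BCL2 family proteins control whether the outer mitochondrial membrane is opened, which releases cytochrome c and activates caspases. MCL-1, BCL-2, BCL-XL (from Bcl2l1) and A1 (from the Bcl2a1 genes) hold the pore-forming effectors BAX and BAK in check, while BH3-only proteins such as BIM (from Bcl2l11), BID and PUMA set the effectors free or activate them. Neutrophils are short-lived cells that are known to depend on MCL-1, a protein with a fast turnover, and macrophages live longer.

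Values are the authors' normalised read counts: reads divided by a factor for each library. Many values under 1000 had lost the place of their decimal point, which was restored as described in the processing section. Of the 243 member values 62 were printed in an undamaged form, 67 had 1 possible place, 114 had several, and 6 could not be placed with a probability of at least 0.95 and were left out. The n given with a mean is the number of libraries with a value. The listed genes held between 997104 and 3281029 reads in a neutrophil library and between 1296700 and 7490508 in a macrophage library, and replicate libraries correlated at 0.904 to 0.964 across genes. The sorted cells were checked against marker genes. The 11 listed of 12 neutrophil markers summed to 22092 to 101738 in the neutrophil libraries and 196 to 1567 in the macrophage libraries. The 11 macrophage markers, all listed, summed to 2671 to 5774 in the neutrophil libraries and 17048 to 36402 in the macrophage libraries. In 1 macrophage anti-CSF-1R library (replicate 2) the 7 mast cell markers summed to 8139, against 7 to 68.1 in the other macrophage libraries. On the first principal component of the neutrophil libraries, combination replicate 2 (68.0) and cisplatin replicate 2 (37.5) had the highest scores and the others lay from -36.4, that of control replicate 1, to 19.3. The factor did not follow the reads over listed genes alone. A read counted as 1.94 in neutrophil combination replicate 2, with 1805708 reads, and as 1.48 in neutrophil control replicate 2, with 1363966. Values are thus not shares of a library, and fold changes rest on this factor. Since values are relative to it, fewer cells of a type and less RNA per cell cannot be told apart.

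Both A1 members belong to a set of near-identical copies on chromosome 9, and the sequences show how little there is to tell their reads apart. In GRCm38 (GENCODE vM21) Bcl2a1b lies at chr9:89199209-89207827 on the plus strand, Bcl2a1d at chr9:88723285-88731914 on the minus strand, and another listed copy, Bcl2a1a, at chr9:88956900-88962419 on the plus strand. Coding sequences were 519 bases each and differed at 12 positions in all, 7 of which fall in the first 150 bases, shown here 5′ to 3′ with those positions in capitals.
Bcl2a1a: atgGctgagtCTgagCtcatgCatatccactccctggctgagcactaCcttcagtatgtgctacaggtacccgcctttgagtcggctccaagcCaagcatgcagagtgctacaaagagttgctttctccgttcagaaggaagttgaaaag
Bcl2a1b: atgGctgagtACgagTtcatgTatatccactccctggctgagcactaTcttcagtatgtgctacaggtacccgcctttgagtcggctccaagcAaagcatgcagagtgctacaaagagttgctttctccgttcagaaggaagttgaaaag
Bcl2a1d: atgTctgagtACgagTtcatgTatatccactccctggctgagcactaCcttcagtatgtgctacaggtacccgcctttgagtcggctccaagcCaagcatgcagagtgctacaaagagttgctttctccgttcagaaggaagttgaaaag
Bcl2a1b and Bcl2a1d were 98.8% identical, with 6 different bases and a stretch of 217 bases with no difference. Bcl2a1a and Bcl2a1d differed at 7 bases and shared a stretch of 314 bases, and Bcl2a1a and Bcl2a1b differed at 11. The sources used here do not say how reads that match several copies were assigned, so the split between the copies is uncertain throughout. Bcl2a1b also shares 401 exonic bases with the gene model Gm29094 on the same strand.

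To set members against each other, mean values were divided by exonic length in GENCODE vM21. In control neutrophils Mcl1 (chr3:95658788-95663176, plus strand) stood first at 2322 ± 201 normalised reads per kb (SD, n = 4), followed by Bcl2a1b at 1095 ± 235 (n = 4), and their ranges did not overlap. The death gene Bcl2l11 came next at 296.9 ± 30.8 (n = 4), ahead of Bcl2a1d at 100 ± 20.7 (n = 3) and Bcl2l1 at 68.9 ± 18.8 (n = 4), whose ranges overlapped. The effectors Bak1, at 36.5 ± 7.93, and Bax, at 24.6 ± 6.65 per kb, also overlapped (n = 4 each), and Bid, at 7.79 ± 1.64, and Bcl2, at 1.68 ± 0.772, were the 2 lowest (n = 4 each). Control macrophages had another order. Bcl2a1b, at 710 ± 433 per kb (n = 4), and Mcl1, at 577 ± 52.4 (n = 4), overlapped at the top, and Bcl2a1d, Bcl2l11, Bak1 and Bax followed between 78.3 and 53.2 per kb, each overlapping the next. Bcl2l1 came after them at 11.2 ± 4.06 (n = 4), then Bid at 5.47 ± 2.99 (n = 3) and Bcl2 at 3.18 ± 0.939 (n = 4). The range of Bid overlapped those of Bcl2l1 and Bcl2.

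**Figure D1:**
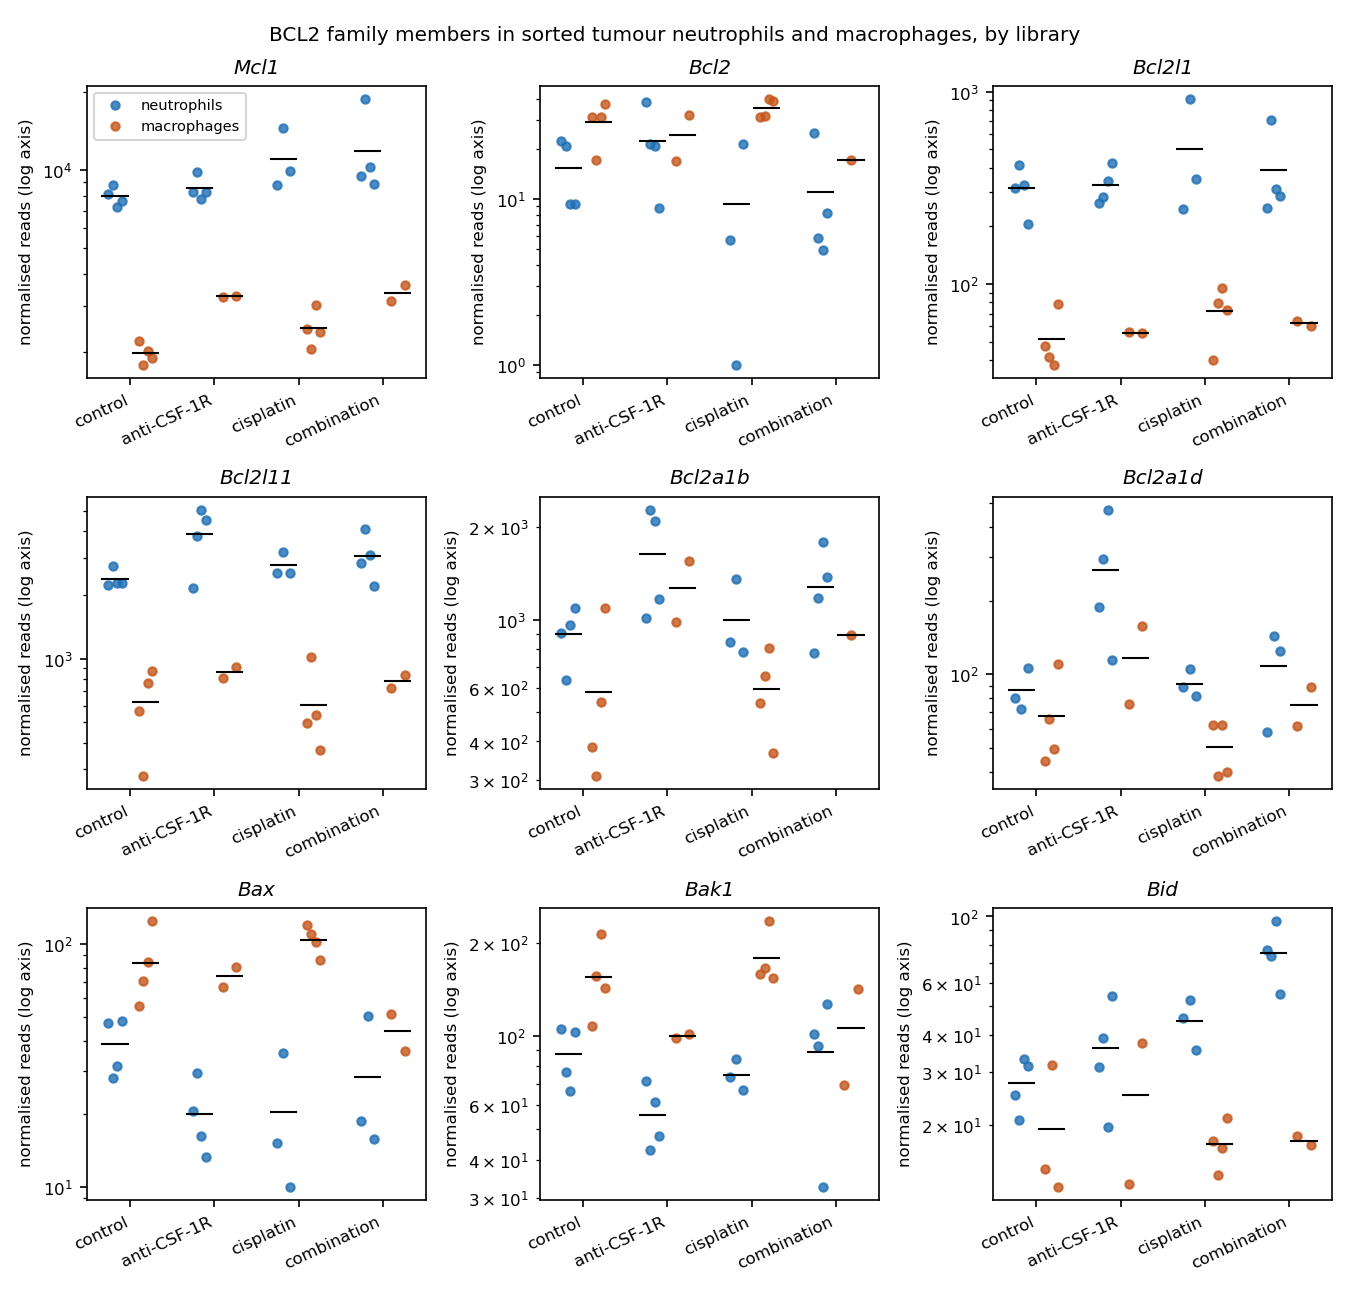
Normalised reads (vertical log axis) of the 9 listed members in every library with a value, by treatment (horizontal axis); blue points are neutrophil libraries, orange points macrophage libraries and bars group means. Mcl1, Bcl2l1 and Bcl2l11 separate the cell types in every treatment, whereas Bcl2a1b overlaps between them.

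The first comparison set macrophages against neutrophils within each treatment, with limma's moderated test on log2(value + 1) and Benjamini-Hochberg adjustment over all genes; an adjusted p under 0.05 counted as called. Such calls were common across the table. In control samples 51.2% of the genes tested were called, 26.5% higher and 24.7% lower in macrophages, and of the 9 members 2 were higher and 3 lower. With anti-CSF-1R 42.4% were called, 21.2% higher and 21.2% lower, and of the members 1 was higher and 3 lower. With cisplatin 56.7% were called, 29.3% higher and 27.4% lower, and of the members 3 were higher and 4 lower. In the combination 46.4% were called, 22.7% higher and 23.7% lower, and of the members 0 were higher and 4 lower. The median member differed by -0.46 to -0.87 against 0.10 to 0.14 for all genes. All 9 passed the filter on low values in each cell type. The survival genes Mcl1 and Bcl2l1 and the death gene Bcl2l11 were lower in macrophages in all 4 treatments, and the death gene Bid in both with cisplatin. The effectors Bax and Bak1 and the survival gene Bcl2 were higher where called, and the A1 copies were not called.

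Mcl1 read 8107, 8816, 7232 and 7591 normalised reads in the 4 control neutrophil libraries and 2198, 1780, 2014 and 1892 in control macrophages. No macrophage library of any treatment, the highest being 3625, reached the lowest neutrophil library at 7232. The log2 fold change was -2.01 (SE 0.24, adjusted p = 1.61e-07, limma), a 4.03-fold lower level in macrophages. With anti-CSF-1R the difference was -1.38 (SE 0.29, adjusted p = 0.000519), with cisplatin -2.15 (SE 0.26, adjusted p = 1.75e-07) and in the combination -1.74 (SE 0.29, adjusted p = 3.33e-05).

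Bcl2l1 (chr2:152780668-152831728, minus strand), which encodes BCL-XL, had the largest differences among the survival genes. Control neutrophils read 315.5, 415.4, 327.5 and 205.5, and control macrophages 47.6, 41.4, 37.9 and 78.7. Every neutrophil library lay above every macrophage library, whose highest value was 95.1 in cisplatin replicate 3. The log2 fold changes were -2.61 (SE 0.35) in control, -2.51 (SE 0.43) with anti-CSF-1R, -2.63 (SE 0.38) with cisplatin and -2.49 (SE 0.43) in the combination, with adjusted p between 1.07e-06 and 5.2e-05 (limma).

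Bcl2l11 (chr2:128126038-128162547, plus strand) encodes BIM, a BH3-only protein that binds all the survival proteins. Control neutrophils read 2235, 2754, 2276 and 2270 and control macrophages 562, 279, 771 and 871. The cell types did not overlap, the highest macrophage library being cisplatin replicate 2 at 1013 and the lowest neutrophil library anti-CSF-1R replicate 1 at 2150. Log2 fold changes were -2.06 (SE 0.31), -2.10 (SE 0.38), -2.28 (SE 0.34) and -1.93 (SE 0.38) in control, anti-CSF-1R, cisplatin and combination, with adjusted p between 4.22e-06 and 0.000239 (limma). The ratio of Bcl2l11 to Mcl1 reads within a library, not corrected for length, had a median of 0.299 in neutrophils (0.218 to 0.649, n = 15) and 0.241 in macrophages (0.155 to 0.497, n = 12), and these ranges overlapped.

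The A1 copies were not called in any treatment. Bcl2a1b read 902, 633, 957 and 1089 in control neutrophils and 384, 309, 536 and 1091 in control macrophages, and macrophage replicate 4 lay above all 4 neutrophil libraries. The difference of -0.77 (SE 0.35) missed the threshold (adjusted p = 0.0658, limma). It passed without macrophage replicate 4 (-1.13, adjusted p = 0.00717) or without neutrophil replicate 2 (adjusted p = 0.0452). In the other treatments Bcl2a1b differed by -0.31 to -0.76 with adjusted p of 0.0848 to 0.583. Bcl2a1d differed by -0.42 (95% interval -1.23 to 0.39) in control and by -1.09 with anti-CSF-1R (adjusted p = 0.0524, limma), where pseudocount 5 (adjusted p = 0.0474), TMM scaling (0.0403) or leaving out macrophage replicate 2 (0.0331), neutrophil replicate 1 (0.0487) or neutrophil replicate 4 (0.0113) brought it past the threshold. With cisplatin Bcl2a1d read 62.0, 38.6, 62.0 and 40.0 in macrophages and 89.1, 105 and 81.3 in neutrophils, with no overlap (-0.87, SE 0.39, adjusted p = 0.0616, limma), and it was called in a fit of only the groups compared (0.0173).

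Bcl2 (chr1:106538178-106714274, minus strand), the founding survival gene, was low in both cell types. With cisplatin it read 31.0, 31.8, 39.8 and 38.9 in macrophages and 5.69, 1 and 21.4 in neutrophils, where 1 is the lowest value the table lists. These groups did not overlap, and Bcl2 was higher in macrophages by 2.43 (SE 0.59, adjusted p = 0.00122, limma). The neutrophil library listed at 1 was cisplatin replicate 2, one of those with the highest component scores; without it the difference was 1.56 (adjusted p = 0.0278). In control, anti-CSF-1R and combination samples the differences of 0.94, 0.21 and 0.88 came with adjusted p of 0.153, 0.82 and 0.415, and the combination had 1 macrophage value.

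Bax (chr7:45461697-45466898, minus strand) and Bak1 (chr17:27019810-27029009, minus strand) encode the effectors that form the mitochondrial pore. Bax read 55.4, 70.6, 84.7 and 124 in control macrophages and 47.4, 28.1, 31.5 and 48.1 in control neutrophils, without overlap, and was higher in macrophages by 1.07 (SE 0.36, adjusted p = 0.0156, limma). That call was lost without macrophage replicate 4 (adjusted p = 0.0649) or neutrophil replicate 2 (0.0526). Larger differences of 1.90 (SE 0.44, adjusted p = 0.00131) with anti-CSF-1R and 2.49 (SE 0.39, adjusted p = 9.31e-06) with cisplatin stayed called whichever library was left out. In the combination the groups overlapped and the difference was 0.78 (95% interval -0.17 to 1.73, adjusted p = 0.168). Bak1 was higher in cisplatin macrophages, at 159, 166, 235 and 154, than in cisplatin neutrophils, at 73.9, 84.6 and 67.0 (1.22, SE 0.34, adjusted p = 0.00341). In control samples Bak1 differed by 0.80 (SE 0.31, adjusted p = 0.034), a call lost with limma-voom (0.0503) and without macrophage replicate 2 (0.0647) or 3 (0.118) or neutrophil replicate 2 (0.0757) or 3 (0.101). Bak1 shares 614 exonic bases with Ggnbp1 on the opposite strand, and the sources used here do not say whether counting used strand.

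Bid (chr6:120891930-120916853, minus strand), the BH3-only protein that caspase-8 cleaves to link death receptors to mitochondria, was called between the cell types in both groups given cisplatin. Cisplatin macrophages read 17.7, 13.6, 16.8 and 21.1 against 45.5, 52.5 and 35.7 in neutrophils, a difference of -1.31 (SE 0.36, adjusted p = 0.00349, limma). In the combination 18.3 and 17.1 in macrophages stood against 76.9, 73.6, 96.4 and 54.9 in neutrophils, a difference of -2.0 (SE 0.41, adjusted p = 0.000351). Neither pair of groups overlapped. Control and anti-CSF-1R samples gave -0.59 (95% interval -1.33 to 0.16) and -0.60 (-1.45 to 0.24) and were not called.

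**Figure D2:**
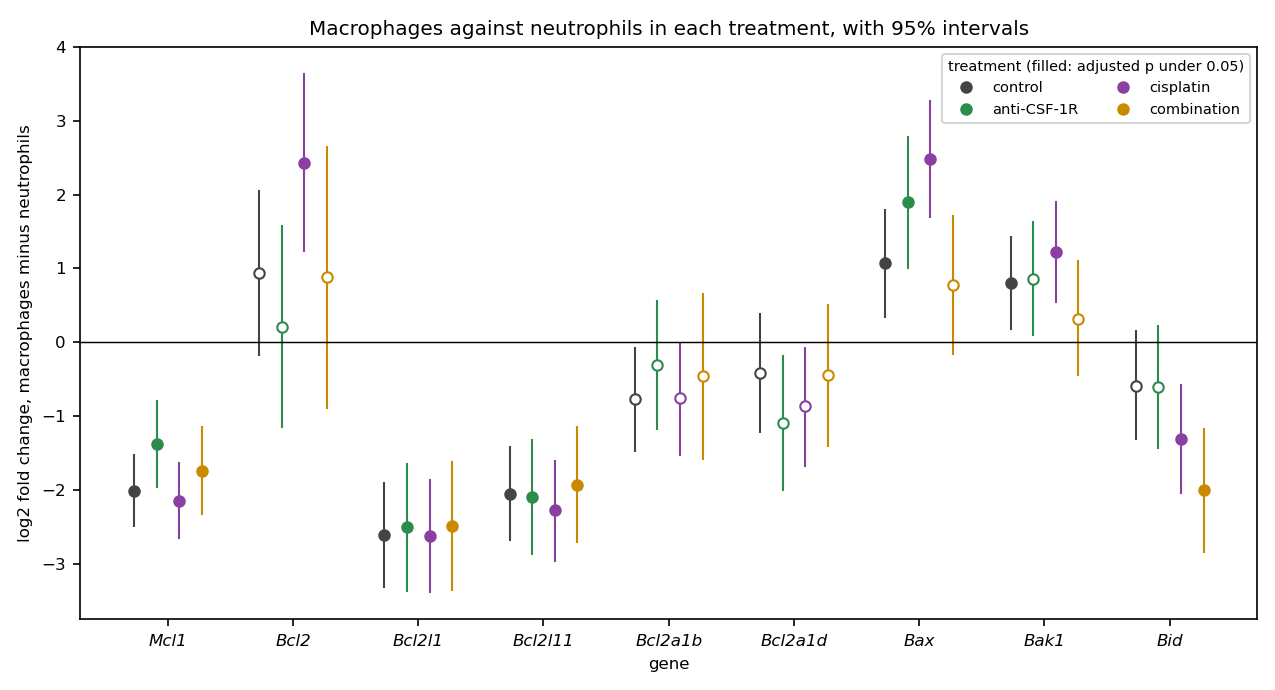
Log2 fold change of macrophages minus neutrophils (vertical axis) for each member (horizontal axis) in the 4 treatments, with 95% intervals; filled points passed an adjusted p of 0.05. Mcl1, Bcl2l1 and Bcl2l11 are filled and below 0 in all 4 treatments, and Bax and Bak1 lie above 0 throughout, with Bax open in the combination and Bak1 open in the combination and with anti-CSF-1R.

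The second set of comparisons asked how each treatment moved the members within a cell type. Few genes were called, and the comparisons with control share the control libraries. In macrophages 2.89% of genes were called for anti-CSF-1R, 0.348% for cisplatin and 2.78% for the combination against control, and 3.48% for the combination against cisplatin. Neutrophils had 0.011%, 0.0439% and 0.471% against control and 0.011% for the combination against cisplatin. Across these 8 comparisons 2 member results were called: Bid in neutrophils, combination against control, and Bax in macrophages, combination against cisplatin. In the 6 others no member was called with limma; 2 (anti-CSF-1R), 0 (cisplatin) and 2 (combination) macrophage members against control, and 4 (anti-CSF-1R) and 1 (cisplatin) neutrophil members against control and 1 against cisplatin, had an unadjusted p under 0.05.

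**Figure D3:**
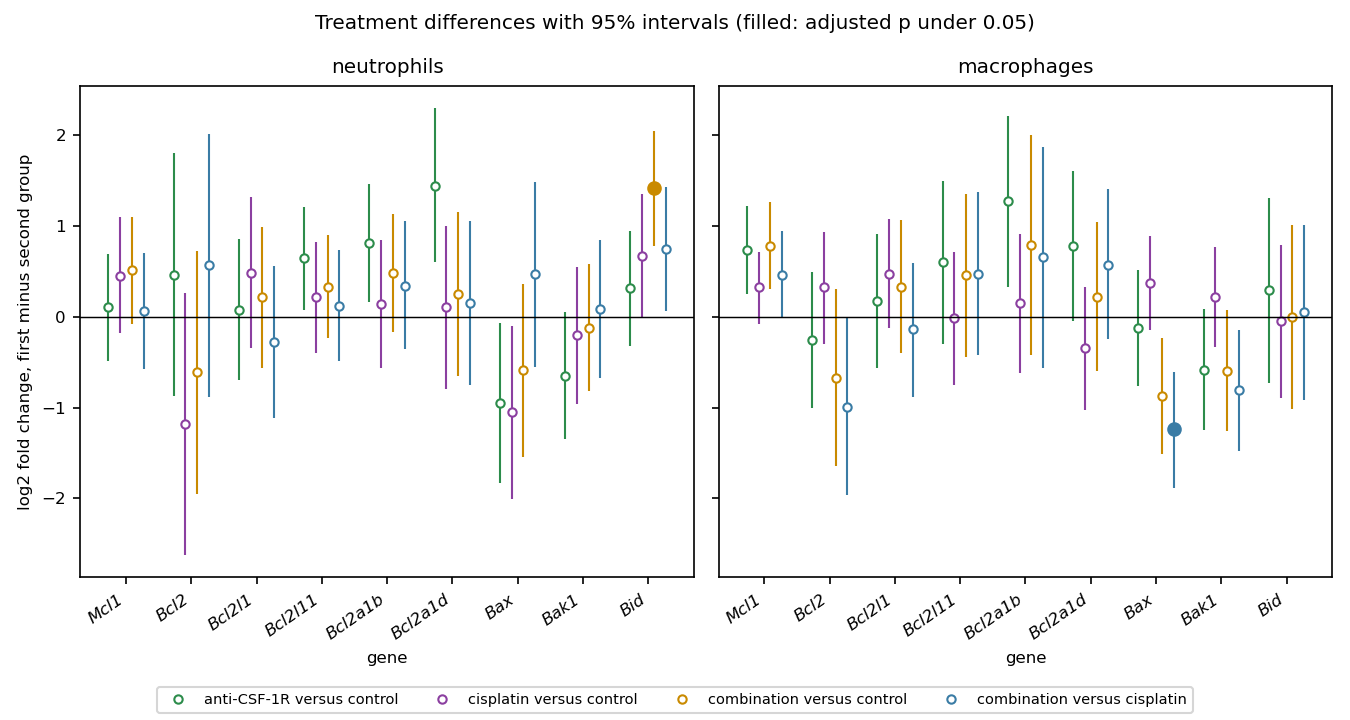
Log2 fold change (vertical axis) of each member in the 4 treatment comparisons of neutrophils (left) and macrophages (right), with 95% intervals; filled points passed an adjusted p of 0.05. Filled points are Bid in neutrophils (combination against control, 1.41) and Bax in macrophages (combination against cisplatin, -1.24).

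Bid rose in neutrophils of the combination. The 4 combination libraries read 76.9, 73.6, 96.4 and 54.9 normalised reads, the 4 control libraries 25.2, 20.7, 33.3 and 31.5, the cisplatin libraries 45.5, 52.5 and 35.7 and the anti-CSF-1R libraries 31.3, 39.1, 19.7 and 54.2. All combination libraries lay above every other neutrophil library, and all cisplatin libraries above every control library. The log2 fold change of the combination against control was 1.41 (SE 0.30, 95% interval 0.78 to 2.04, adjusted p = 0.0455, limma), a 2.66-fold higher level. Cisplatin against control gave 0.67 (SE 0.32, adjusted p = 0.689), combination against cisplatin 0.74 (SE 0.32, adjusted p = 0.563) and anti-CSF-1R against control 0.31 (SE 0.30, adjusted p = 0.827).

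The Bid call sat close to the threshold. Leaving out any of the 4 combination replicates (adjusted p = 0.0821, 0.14, 0.0665 and 0.0658 for 1 to 4) or control replicate 1, 2 or 3 (0.118, 0.128 and 0.0953) ended it, with fold changes of 1.28 to 1.55 on the log2 scale. In 24 of the 27 libraries the Bid value had several possible places for its point, and with places restored without the groups the difference was 1.55 (adjusted p = 0.0599). Bid shares 628 exonic bases with Bcl2l13, a BCL2 family gene on the opposite strand, so reads there may belong to either. Bcl2l13 read 59.2, 56.2, 64.8 and 64.8 in control and 68.6, 67.8, 83.3 and 60.4 in combination neutrophils, a difference of 0.18 (SE 0.22, adjusted p = 0.739). Cisplatin neutrophils read 45.5, 47.4 and 44.2 for Bcl2l13, below every combination library (0.60, SE 0.24, adjusted p = 0.527).

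Markers of other cells were also compared between combination and control neutrophils. The 4 monocyte markers summed to 1499 to 7727 in the combination neutrophils and to 762 to 1293 in control; all 4 were higher, with a median of 1.39 on the log2 scale, 3 had an unadjusted p under 0.05 and 0 were called (limma). Of 6 eosinophil markers 4 were listed, with sums of 145 to 763 against 136 to 429 and a median difference of 1.15, and 2 had an unadjusted p under 0.05. Macrophage markers summed to 2671 to 4716 against 3349 to 5333. Within the combination, replicate 3 had the highest Bid value, 96.4, and the lowest monocyte marker sum, 1499. In cisplatin neutrophils the monocyte markers summed to 1172 to 3191. The part of such cells in the Bid difference was not tested.

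**Figure D4:**
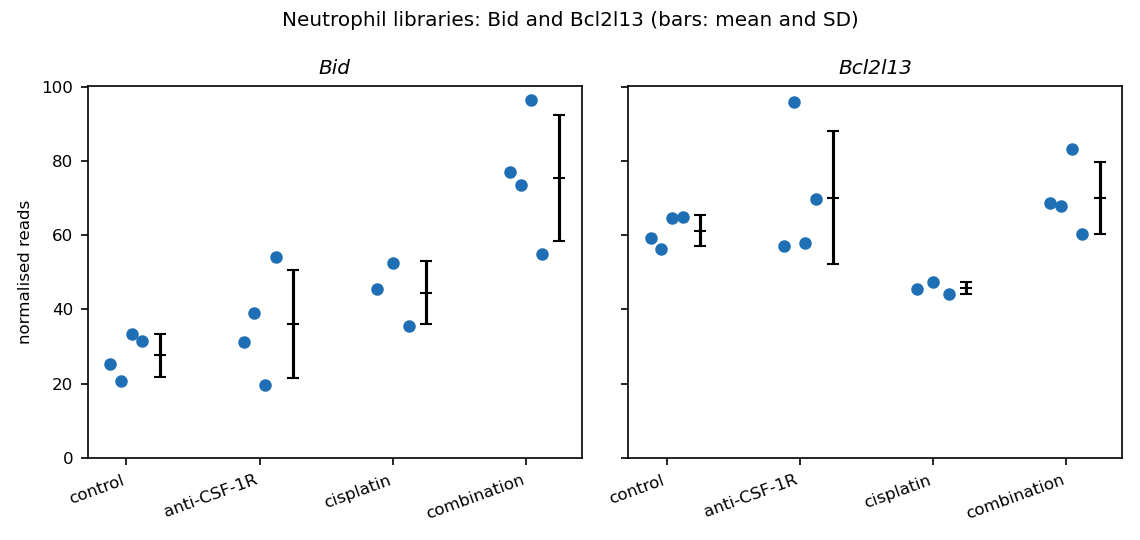
Normalised reads of Bid (left) and the overlapping gene Bcl2l13 (right) in the neutrophil libraries by treatment; points are libraries and bars mean and SD. Bid in the combination sits at 54.9 to 96.4, above all other libraries, and Bcl2l13 at 60.4 to 83.3 overlaps the control range of 56.2 to 64.8.

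In neutrophils the survival genes showed no called change. Mcl1 read 9473, 18801, 10293 and 8842 in the combination, all above the highest control library at 8816. Replicate 2 stood far above the rest, and the difference was 0.51 (SE 0.28, adjusted p = 0.41, limma). Before division by the factor, Mcl1 had 4558 of 1016012, 9708 of 1805708, 6302 of 1319062 and 12881 of 3281029 reads in replicates 1 to 4. Control replicates 1 to 4 had 5474 of 1262692, 5964 of 1363966, 3909 of 1085114 and 8200 of 2109631. As a share of these reads, combination replicate 4 lay below control replicates 1 and 2, so the separation from control rests on the factor. Cisplatin neutrophils read 8781, 14553 and 9958 (0.45, SE 0.30, adjusted p = 0.729, limma), from 4632 of 997104, 8597 of 1690305 and 6983 of 1551846 reads. The same libraries, combination and cisplatin replicate 2, also read highest for Bcl2l1, at 713 and 912 against 246 to 351 in the others of these groups. These libraries had the highest scores on the first principal component. Bcl2l1 differed from control by 0.48 (SE 0.40, adjusted p = 0.778) with cisplatin and by 0.21 (SE 0.37, adjusted p = 0.841) in the combination.

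With anti-CSF-1R alone no neutrophil member was called, although 4 had an unadjusted p under 0.05. Bcl2a1d read 189, 295, 467 and 114, all above the highest control value of 106, and Bcl2a1b read 1008, 2274, 2095 and 1164 against a control range of 633 to 1089. The differences were 1.44 (SE 0.40, unadjusted p = 0.00218, adjusted p = 0.289, limma) for Bcl2a1d and 0.81 (SE 0.31, adjusted p = 0.473) for Bcl2a1b. Bcl2l11 read 2150, 3798, 5035 and 4546 against 2235 to 2754 (0.64, SE 0.27, adjusted p = 0.544), with replicate 1 below and the others above every control library. Bax lay lower, at 20.6, 29.3, 16.2 and 13.3 against 28.1 to 48.1 in control (-0.95, SE 0.42, adjusted p = 0.568). Dendritic cell markers (3 of 5 listed) summed to 62.6 to 222 in these libraries and to 13.9 to 59.2 in control, and B cell markers to 445 in replicate 1 and 7.5 to 33.2 in the other anti-CSF-1R libraries, against 5 to 70.3 in control. The part of such cells in these differences was not tested.

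Among macrophages Bax was lower in the combination than with cisplatin alone. It read 51.7 and 36.2 in the combination and 120, 110, 102 and 86.4 with cisplatin, and the groups did not overlap. The log2 fold change was -1.24 (SE 0.30, 95% interval -1.88 to -0.61, adjusted p = 0.0358, limma), a 2.37-fold lower level. Against control, at 55.4 to 124, the combination differed by -0.87 (SE 0.30, adjusted p = 0.133), and cisplatin by 0.37 (SE 0.24, adjusted p = 0.696). The other effector, Bak1, read 69.6 and 142 in the combination and 154 to 235 with cisplatin (-0.81, SE 0.31, adjusted p = 0.158).

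This Bax call also sat near the threshold. It was lost without cisplatin replicate 1 (adjusted p = 0.0871), 3 (0.0684) or 4 (0.0657), without combination replicate 1 (0.116) or 2 (0.325), with limma-voom (0.0577) and with places restored without the groups (0.0534); the difference ranged from -0.99 to -1.49. Markers also differed between combination and cisplatin macrophages. The neutrophil markers summed to 1357 and 1508 in the combination macrophages and to 196 to 392 with cisplatin, and 4 of the 11 listed, S100a8, S100a9, Retnlg and Mmp8, were called higher in the combination. Camp was at the lowest listed value in both combination libraries. The 4 monocyte markers summed to 617 and 1431 against 465 to 945, with Ly6c2 and Plac8 called higher. The macrophage markers Csf1r, C1qb and C1qc (3 of 11) were called lower. The sum of all 11, at 24466 and 24179, lay inside the cisplatin range of 21576 to 29410. Sums of eosinophil markers (29.9 and 215 against 5.7 to 8.9) and endothelial markers (165 and 99.5 against 6.4 to 55.6) were higher in the combination, and sums of proliferation genes (104 and 99.8 against 322 to 812) lower. The part of these cells and genes in the Bax difference was not tested. Control macrophage replicate 3, with a neutrophil marker sum of 1567, read 84.7 for Bax.

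Mcl1 in macrophages was the member nearest to a call with anti-CSF-1R. Both anti-CSF-1R libraries, at 3255 and 3283, and both combination libraries, at 3134 and 3625, lay above the control libraries at 1780 to 2198 and the cisplatin libraries at 2040 to 3026. The differences from control were 0.73 (SE 0.23, unadjusted p = 0.00553, adjusted p = 0.0927, limma) and 0.78 (SE 0.23, unadjusted p = 0.00373, adjusted p = 0.0807), and the combination differed from cisplatin by 0.46 (SE 0.23, adjusted p = 0.269). None passed the threshold. The anti-CSF-1R libraries also held more neutrophil marker reads, 1048 and 1140, than 3 of the 4 control libraries, at 255 to 411, and the fourth held 1567 with an Mcl1 value of 2014. Neutrophils carry more Mcl1 than macrophages, as given above, and the part of such cells in this difference was not tested.

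**Figure D5:**
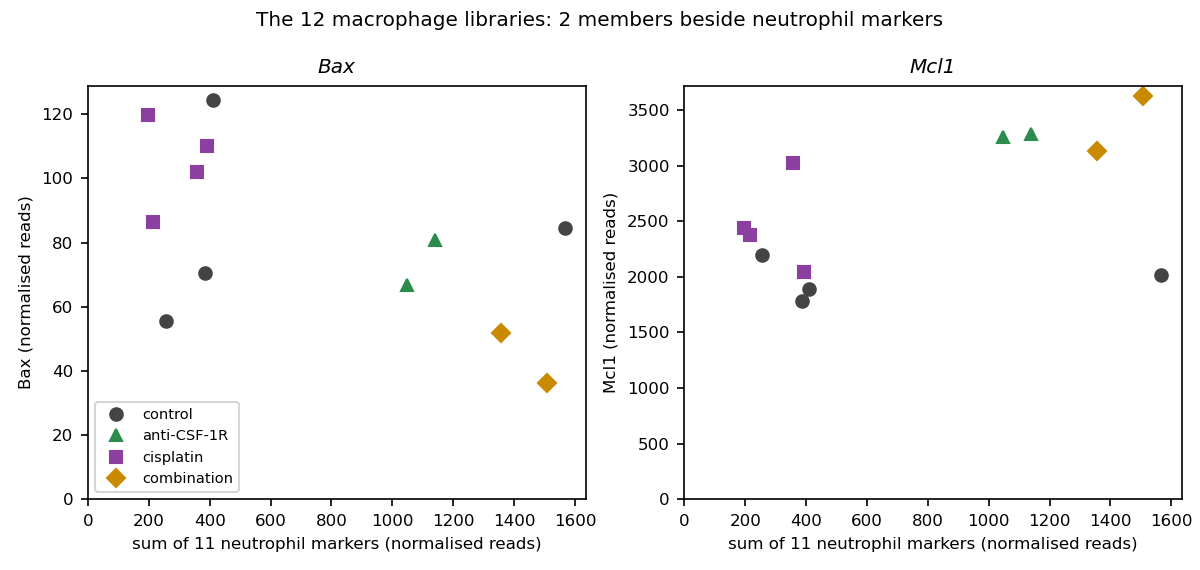
Bax (left) and Mcl1 (right) in the 12 macrophage libraries, in normalised reads, against the summed level of 11 neutrophil markers; each point is a library and its shape and colour the treatment. Both combination libraries join a high marker sum with low Bax and high Mcl1, and 1 control library joins the highest sum, 1567, with a Bax value of 84.7 and an Mcl1 value of 2014.

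Bcl2a1b read 984 and 1557 with anti-CSF-1R against 384, 309, 536 and 1091 in control (1.27, 95% interval 0.33 to 2.21, adjusted p = 0.125); without control replicate 4 it was called (1.63, adjusted p = 0.0204). The higher of both anti-CSF-1R values came from the library with the mast cell markers, and without that library the difference was 0.94 (adjusted p = 0.594). Bcl2 read 17.2 in the 1 combination library with a value and 31.0 to 39.8 with cisplatin (-0.99, adjusted p = 0.242). Bcl2l1, Bcl2l11, Bcl2a1d and Bid differed by at most 0.78 on the log2 scale in the macrophage comparisons, with adjusted p of at least 0.27.

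Whether a treatment acted differently in the cell types was tested by the interaction term over all 8 groups. No member was called in any of the 3 interactions (limma), where 0.0918% (anti-CSF-1R), 0.0101% (cisplatin) and 0.0102% (combination) of all genes were. At an unadjusted p under 0.05 there was 1 member for cisplatin, Bax, whose difference from control was 0.37 in macrophages and -1.05 in neutrophils, neither called, with 1.42 between them (SE 0.53, 95% interval 0.34 to 2.51, adjusted p = 0.689), and 1 for the combination, Bid, whose change in macrophages minus that in neutrophils was -1.42 (SE 0.55, 95% interval -2.54 to -0.30, adjusted p = 0.497). So the Bid rise in neutrophils was not shown to differ from macrophages, in which Bid changed by -0.01 (95% interval -1.02 to 1.01) in the combination.

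Other genes of the pathway were counted by list. Of 18 further BCL2 family genes 10 were listed. None of those tested was called in any of the 8 treatment comparisons (limma), where 0.011% to 3.48% of all genes were. In each, 0 to 2 of these family genes had an unadjusted p under 0.05. Their median difference lay between -0.30 and 0.33, and that of all genes between -0.01 and 0.03. Between control cell types, where 26.5% of all genes were higher and 24.7% lower, 2 of 10 were higher in macrophages, the BH3-only gene Bad (25.1 against 9.16, 1.39, SE 0.39) and the survival gene Bcl2l2 (18.9 against 7.54, 1.27, SE 0.46). Another 5 were lower: Pmaip1, the BH3-only protein NOXA that binds MCL-1 (124 against 299, -1.54, SE 0.44), Bnip3 (-1.59), Bnip3l (-1.45), Bcl2l15 (-2.26) and Bcl2l13 (-0.65).

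The apoptosome and caspase list had 20 of 22 genes listed. Of the 20 tested in control samples 7 were higher and 4 lower in macrophages, beside 26.5% and 24.7% of all genes, with a median difference of 0.12 against 0.13 for all genes. Higher were the mitochondrial channel genes Vdac1 (209 against 93.6), Vdac2 (302 against 155) and Vdac3, the carrier Mtch2 that receives cleaved BID (51.3 against 33.5, 0.60, SE 0.25), and Casp9, Htra2 and Parp1. The inhibitors of apoptosis Birc3 (125 against 800, -2.66, SE 0.22), Birc2 (-0.82) and Xiap (-0.71) were lower. Beyond control samples, Aifm1 was higher in combination macrophages (1.78) and Birc5 in cisplatin macrophages (3.21). Among the treatment comparisons, Htra2 (-1.37) and Parp1 (-1.11) fell with anti-CSF-1R in macrophages, and Vdac1 fell in combination neutrophils (46.3 against 93.6, -1.05, SE 0.23, adjusted p = 0.0477). That Vdac1 call sat close to the threshold. Over all genes the 43 calls of combination against control in neutrophils became 9 with places restored without the groups. Whether Vdac1 was among them is not reported here.

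Of 12 death receptor genes tested between control cell types 5 were lower and 1 higher in macrophages, beside 24.7% and 26.5% of all genes, and the median difference was -0.87 against 0.13 for all genes. Lower were the receptors Fas (3.77 against 129, -4.70, SE 0.34), Tnfrsf10b (-3.08), Tnfrsf1a (-2.21) and Tnfrsf1b (-1.93), and Cflar, the inhibitor of caspase-8 (251 against 956, -1.92, SE 0.30); the ligand gene Tnfsf10 was higher (2.12). Fasl was lower in macrophages in the other 3 treatments (-1.91 to -2.45), Casp8, the protease that cleaves BID, in the combination (-0.80), and Fadd was higher with cisplatin (2.33). In combination macrophages Fas rose against control (20.4 against 3.77, 2.13, SE 0.46, adjusted p = 0.0268), and Tnfsf10 (1.79, SE 0.35, adjusted p = 0.0231) and the necroptosis effector Mlkl (1.84, SE 0.43, adjusted p = 0.0318) rose against cisplatin. With a mean of 3.77, control macrophages alone could not have brought Fas past the filter on low values. The neutrophil markers summed to 1357 and 1508 in combination macrophages, to 255 to 1567 in control and to 196 to 392 with cisplatin. Between control cell types Fas was higher in neutrophils and Tnfsf10 in macrophages. The part of neutrophils in these treatment differences was not tested.

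Of 16 p53 target genes 15 were listed. After cisplatin 4 of 13 tested were called higher in macrophages, where 0.348% of all genes were called. They were Ccng1 (687 against 255, 1.43, SE 0.15, adjusted p = 0.000516, limma), Zmat3 (152 against 37.3, 2.03, SE 0.29), Trp53inp1 (111 against 38.7, 1.51, SE 0.25) and Phlda3 (22.7 against 1.81, 3.17, SE 0.49). Over all genes the 32 calls of this comparison became 2 with places restored without the groups. At most 2 of these 4 calls could thus hold in that setting. Control values of Phlda3 lay near 1, the lowest value listed, so libraries of other groups carried it past the filter on low values. In the combination Ccng1 (0.93), Trp53inp1 (1.21) and Mdm2 (1.36) rose against control, and Zmat3 fell against cisplatin (-1.92, SE 0.33, adjusted p = 0.0125). No p53 target was called in a neutrophil comparison (limma), where only 0.011% to 0.471% of all genes were. Of 13 tested, 0 to 3 had an unadjusted p under 0.05. In neutrophils Ccng1 changed by 0.45 (SE 0.24, adjusted p = 0.689, limma) after cisplatin. Whether these targets responded differently in the cell types is not reported here. Bax, itself a classical p53 target, was not called after cisplatin in either cell type. Between control cell types 3 of 15 were higher in macrophages (Sesn1, Ei24, Gtse1) and 8 lower (Btg2, Ccng1, Cdkn1a, Mdm2, Perp, Sesn2, Tnfrsf10b, Trp53inp1), beside 26.5% and 24.7% of all genes, while Aen, Phlda3 and Zmat3 were higher with cisplatin.

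Genes most like each member were found by Pearson correlation of log2 values over the libraries after subtracting the mean of each cell type, among 5185 or 5186 well-measured genes; libraries share depth and treatment, and the values are descriptions. Bcl2a1d was most like Bcl2a1b (r = 0.77, 24 libraries), and Bcl2a1a correlated with Bcl2a1b at 0.74 and with Bcl2a1d at 0.64; these copies share the sequence shown above. Bcl2a1b was most like Jak2 (0.82), Tnf (0.81) and Tnfrsf1b (0.80), and Bcl2a1d followed Sod2 (0.77) and Odc1 (0.74) after its copy. Mcl1 was most like Hk3 (0.88), Cd53 (0.87) and Osm (0.86), Bcl2l11 like Smim3 (0.89), Slc15a3 (0.87) and Skil (0.84), and Bcl2l1 like App and Etf1 (0.77 each) and Per1 (0.76). Bak1 was most like C1qa (0.78), Rn45s (0.72) and Lars2 (0.69), Bax like Lman2 (0.75), Psmb3 (0.69) and 3110082I17Rik (0.67), Bid like Tle3 (0.75), Il18bp (0.74) and Txnip (0.72), and Bcl2 like Rfx7 (0.76), Pogz (0.75) and Qser1 (0.74). Among members of different genes, Bcl2l11 and Bcl2a1b had the highest correlation (0.68, 26 libraries), followed by Mcl1 and Bcl2l1 (0.57, 27 libraries), and the lowest, -0.42, was that of Bcl2 with Mcl1 and with Bid.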

How the data were processed

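Libraries of sorted cells were amplified from 10 ng RNA each, per the labels' protocols. TopHat2 2.0.11, Partek 6.6, CASAVA 1.8, DESeq2, R 3.3.1 and the build mm10 appear without a role in the submitters' processing notes. The authors deposited 1 table of signal values, which are read counts over a factor for each library; its lowest value is 1. Most values under 1000 had lost their decimal point. Places were restored where they gave whole reads (within 0.02), and where several did (67.8% of all values) by a negative binomial model over the groups; 4.62% with a probability under 0.95 were left out, and the model expected 0.112% of those kept to be wrong. Using the groups can favour group differences, so places were also restored without them.

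A gene was tested in a cell type if its value was 10 or more in 2 or more of that type's libraries. The test was limma 3.58.1 (R 4.3.3, two-sided, with trend) on log2 values after adding 1, fitted to the 4 groups of a cell type, or to all 8 groups where cell types were compared. Fold changes on this scale understate those of low genes. The steps were tested on simulated data. No library was a copy of another. Alternatives were pseudocount 5, no filter, TMM scaling, only the groups compared, other restorations, limma-voom on restored reads and each library left out. Replicates were numbered in sample order. All listed members are named, pathway and marker genes where called (a few are not reported here), and the 3 genes most like each member. Members and lists were chosen with earlier results of these data known. Positions and coding sequences are from GENCODE vM21. Python 3.11.15 with numpy 2.4.6, pandas 2.3.3 and scipy 1.17.1 did the rest.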

Additional observations from a re-analysis of the deposited data

Results flagged for a closer look

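In each group of 4 libraries the gap between the highest or lowest value and its neighbour was set against the group's range by Dixon's test at its 95% critical value. It was applied to 41 such groups over the 9 members, and chance marks about 1 in 20; it marked 5. Neutrophil combination replicate 2 was far above the other 3 for Mcl1 (18801 normalised reads) and Bcl2l1 (713). It had the highest score on the first principal component of the neutrophil libraries. Both values rest on the factor of that library. Neutrophil combination replicate 1 was high for Bcl2 (24.9). Neutrophil control replicate 2 was high for Bcl2l11 (2754). Macrophage cisplatin replicate 3 was high for Bak1 (235). No interaction of cell type and treatment was called for a member.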

How the results depend on the processing

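No direction reversed in the 40 member results with an unadjusted p under 0.05, over 585 alternative values; 548 stayed on the same side of the threshold, 26 lost it and 11 gained it. Of 22 called results 18 were never lost; the others were Bid and Bax between treatments and Bax and Bak1 between control cell types. Members called for neutrophils, combination against control, were 1, and 0 with TMM scaling, no filter, limma-voom, places restored without the groups or both neutrophil libraries with the highest component scores left out (chosen after seeing the data; Bid 1.41, adjusted p = 0.15), and 0 to 1 with a library left out. For macrophages, combination against cisplatin, 1 became 0 with limma-voom or without the groups, 2 (Bax and Bcl2) with the most probable place for every value, and 0 to 1 with a library left out. For macrophages, anti-CSF-1R against control, 0 became 0 to 1. Over all genes the 43 called for combination neutrophils ranged from 1 to 61 over the other settings and from 1 to 120 with a library left out, and the 318 of macrophages, combination against cisplatin, from 146 to 596 and from 6 to 522. Against control, the 264 of anti-CSF-1R macrophages ranged from 25 to 522, the 32 of cisplatin from 2 to 128 and the 254 of the combination from 11 to 611. Where a macrophage group kept 1 library, that library was assumed to vary like the other groups. A count test with edgeR was not run, since the table as deposited does not hold counts. No paired analysis was possible because the labels give no replicate numbers. Bid, Bcl2 and Bax values of 10 to 100 rest on few reads, and macrophage groups of 2 limit what can be detected.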
